A study of Mus musculus with 9 samples.

Results

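Cytotoxic lymphocytes kill target cells with granules and with death ligands. Cytotoxic T cells and NK cells store granzymes, a family of serine proteases, in granules together with perforin, which opens the target membrane, and they also display Fas ligand, which triggers death receptors. T-bet, a T-box transcription factor, drives much of this program and that of interferon-gamma. In liver tumors these transcripts are read as a trace of effector lymphocytes.

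The genes described here were chosen by name and not by a rule on their values, though with earlier results of these data known. They are the granzymes Gzma, Gzmb, Gzmk and Gzmc, the perforin gene Prf1, the granule membrane gene Nkg7, the Fas ligand gene Fasl, the interferon-gamma gene Ifng and the T-bet gene Tbx21. All 9 of the 9 named genes were found in each of the 9 tumor tables, out of 27398 gene symbols with a value above 0 in any tumor. A gene's level is given as FPKM, the number of sequenced fragments scaled to transcript length and to library size. Ifng shared its entry with the gene model Gm49751 in 9 of 9 tumors, so its value is the level of both. The other members had an entry of their own in every tumor.

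The tumors came from C57BL/6 mice carrying orthotopic tumors of Hepa1-6, a mouse hepatoma line, placed in the liver as pieces of a subcutaneous tumor. Mice received either PBS or an antibody against PD-1, an inhibitory receptor of T cells, by intraperitoneal injection at 4-day intervals for 5 injections. Of the antibody-treated tumors, the 3 largest form the nonresponsive group and the 3 smallest the responsive group, those in between were set aside, and 3 PBS tumors served as controls, so response is tumor size at the end of treatment. Each of the 9 bulk RNA-seq libraries is 1 whole tumor from 1 mouse, and the model is a single cell line. In bulk tumors, fewer cells of a type and less RNA per cell cannot be told apart.

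Depth was similar between libraries, at 0.939 to 1.07 times that of PBS tumor 1 by the deposited confidence intervals of FPKM. The share of summed FPKM held by entries naming no gene was not. It was 19.2% to 81.5% in the PBS tumors, 70.4% to 73.2% in the nonresponsive tumors and 21.0% to 55.1% in the responsive tumors. Libraries stood apart in cell content. PBS tumor 1 had the lowest level of the T cell list and of the hepatocyte list, at a mean log2(FPKM + 1) of 2.71 and 3.26, against 3.54 to 4.57 and 5.78 to 8.79 in the other 8 tumors. Responsive tumor 1 had the highest hepatocyte level, 8.79. For each comparison, the counts and medians of the effector genes are given with these tumors and without 1 or the other. The hepatoma marker Afp ranged from 0.321 FPKM in nonresponsive tumor 1 to 56.5 in nonresponsive tumor 3. The T cell markers Cd3e and Trac were detected in every tumor, and the NK cell marker Ncr1 was low, at 0.359 to 1.11 FPKM.

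Levels of the effector genes differed by gene. Nkg7 had the highest mean over the 9 tumors, 32.4 FPKM, followed by Gzmc at 30.0, Gzmb at 25.7, Gzma at 11.7, Prf1 at 7.55, Gzmk at 4.90, Ifng at 4.79, Tbx21 at 2.57 and Fasl at 1.61. The tumors spread widely around these means. Each gene's range over the 9 tumors overlapped that of its neighbour in this order. Gzmc varied most, 17.6-fold between its lowest and highest tumor, and Fasl least, 2.59-fold. Fasl was also the least precisely measured. Its deposited interval implied 5.38 to 26.9 fragments per tumor, against 46.7 to 733 for Gzmc.

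**Figure D1:**
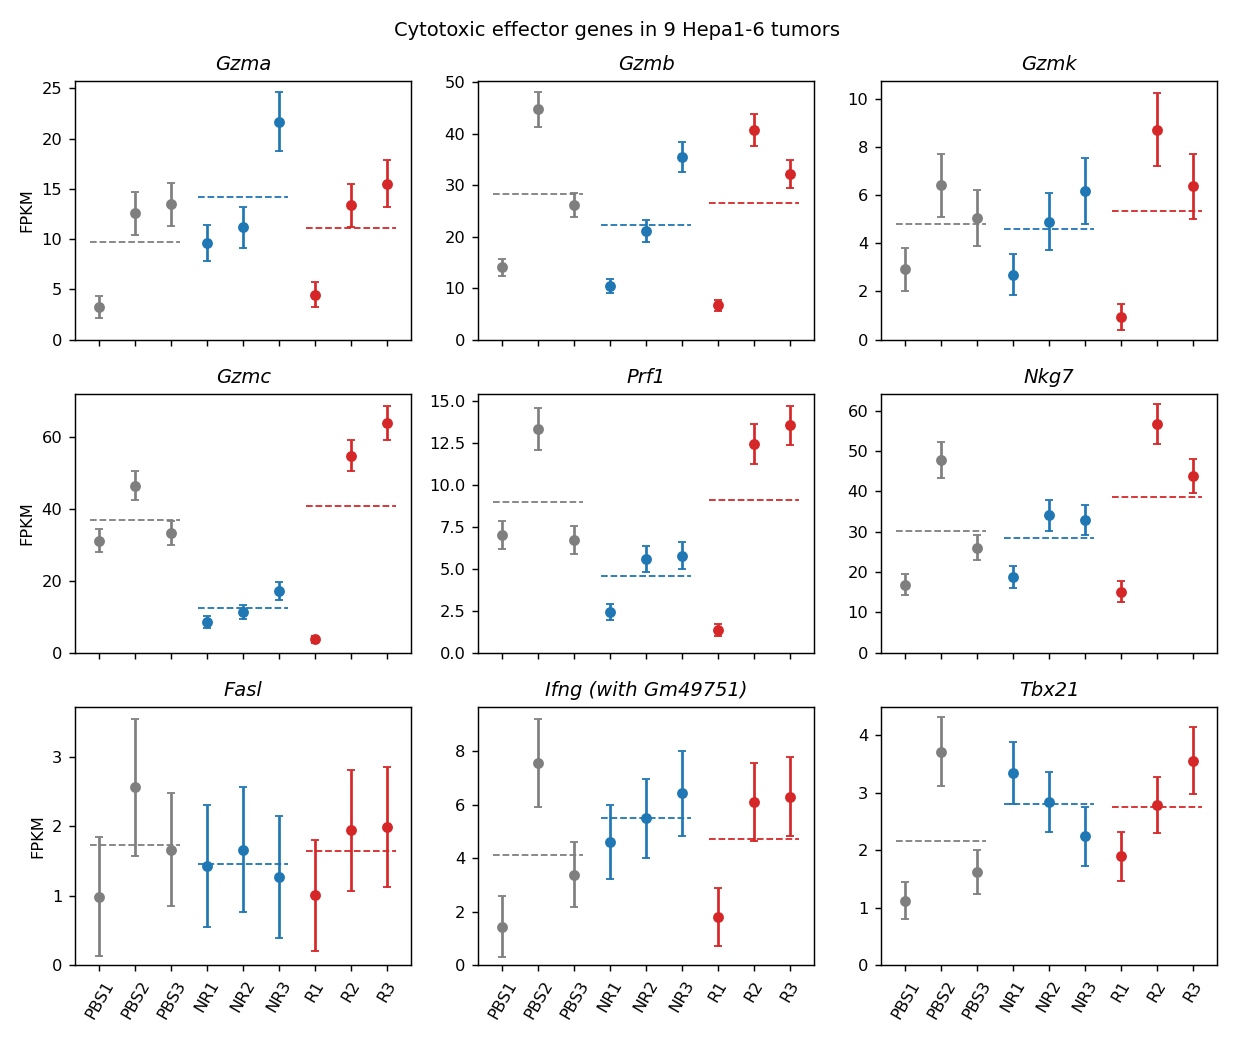
FPKM of each effector gene (vertical axis, linear from 0) in PBS (PBS1 to PBS3), nonresponsive (NR1 to NR3) and responsive (R1 to R3) tumors. Points are tumors, bars the deposited 95% confidence intervals of FPKM, and dashed lines the group means. Responsive tumor 1 lies at 0.940 FPKM of Gzmk and 1.33 of Prf1, far below the other 2 responsive tumors.

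The granule genes were followed first. Gzma encodes granzyme A, a tryptase-like protease. Gzma was measured at 3.23, 12.5 and 13.5 FPKM in PBS tumors 1 to 3, at 9.60, 11.2 and 21.7 in the nonresponsive tumors and at 4.44, 13.3 and 15.5 in the responsive tumors. The highest value was that of a nonresponsive tumor and the lowest that of a PBS tumor, and all 3 groups overlapped.

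Gzmb encodes granzyme B, which cleaves caspases in the target cell. Gzmb reached 14.1, 44.8 and 26.2 FPKM in the PBS tumors, 10.5, 21.1 and 35.5 in the nonresponsive tumors and 6.65, 40.7 and 32.3 in the responsive tumors. Both the lowest and the second-highest value were those of responsive tumors. Gzmk, which encodes a granzyme of memory-like T cells, was at 2.92, 6.40 and 5.06 FPKM in the PBS tumors, 2.69, 4.89 and 6.17 in the nonresponsive tumors and 0.940, 8.71 and 6.36 in the responsive tumors. The responsive tumors again held both ends of its range.

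Gzmc lies in the same granzyme cluster as Gzmb on chromosome 14 and encodes a granzyme of strongly activated lymphocytes. Gzmc was measured at 31.1, 46.3 and 33.2 FPKM in the PBS tumors, at 8.58, 11.3 and 17.0 in the nonresponsive tumors and at 3.63, 54.8 and 63.9 in the responsive tumors. Every nonresponsive tumor lay below every PBS tumor, while the responsive tumors lay on both sides of the nonresponsive ones. The stretch of genome covered by the Gzmc entry was not the same in all tumors. It was shorter in nonresponsive tumor 1 and responsive tumor 1 than in the others, so the tumors may not measure exactly the same quantity. The effect of this on the Gzmc values was not tested. Of the 50-base stretches of its GENCODE transcripts, 4.14% are also found in other genes, among them Gzme, Gzmg and Gzmd. This is a share of sequence and not of fragments. How many of the Gzmc fragments could have been assigned either way was not measured. None of the stretches of Gzma, Gzmb, Gzmk, Prf1, Nkg7, Fasl or Tbx21 was shared with another gene.

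Prf1, the gene of perforin, was at 6.99, 13.3 and 6.70 FPKM in the PBS tumors, 2.39, 5.56 and 5.76 in the nonresponsive tumors and 1.33, 12.4 and 13.5 in the responsive tumors. As for Gzmc, the nonresponsive and PBS tumors did not overlap. Nkg7, whose product takes part in granule release, was at 16.8, 47.7 and 26.0 FPKM in the PBS tumors, 18.6, 34.0 and 32.9 in the nonresponsive tumors and 15.1, 56.7 and 43.9 in the responsive tumors. Its groups overlapped throughout.

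Fasl had values of 0.990, 2.56 and 1.67 FPKM in the PBS tumors, 1.43, 1.67 and 1.27 in the nonresponsive tumors and 1.01, 1.94 and 1.99 in the responsive tumors. Ifng, the gene of the cytokine that raises antigen presentation in tumor cells, was at 1.44, 7.56 and 3.39 FPKM in the PBS tumors, 4.62, 5.50 and 6.43 in the nonresponsive tumors and 1.80, 6.10 and 6.31 in the responsive tumors. Both genes were lowest in PBS tumor 1 and highest in PBS tumor 2. Tbx21 was at 1.13, 3.72 and 1.63 FPKM in the PBS tumors, 3.35, 2.85 and 2.24 in the nonresponsive tumors and 1.90, 2.79 and 3.56 in the responsive tumors. It too ran from PBS tumor 1 to PBS tumor 2, so that the controls spanned the treated tumors.

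The members ranked the tumors in a similar order. Responsive tumor 1 was the lowest of the 9 tumors for 5 members and among the lowest 2 for 8 of 9. PBS tumor 1 was the lowest for the other 4 members. At the upper end, PBS tumor 2 and responsive tumor 3 were each among the highest 3 for 8 members, and responsive tumor 2 for 6. The mean log2(FPKM + 1) of the 9 members was 2.61, 3.82 and 3.22 in the PBS tumors, 2.67, 3.13 and 3.37 in the nonresponsive tumors and 1.98, 3.80 and 3.78 in the responsive tumors.

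Because T-bet binds T-box sites, the bases before the start sites were searched for the letters of such a site, with the motif chosen after the sequences had been seen. All 9 members matched a promoter in the RefSeq table of build GRCm38.p6. In the 250 bases upstream, the half-site AGGTGTGA was present on either strand in 1.12% of 32851 promoters and, among the members, in that of Nkg7. The core GTGTGA, which lies inside the half-site, was present in 12.3% of promoters and in 3 of the 9 members, Nkg7, Gzmk and Gzmb. The last 100 bases before the start are shown for these 3, 5′ to 3′ on the gene's strand, with matches in capitals. Nkg7 lies on the plus strand (chr7:43437038-43437137), with Gzmk (chr13:113180966-113181065) and Gzmb (chr14:56262335-56262434) on the minus strand, and the Gzmb match is the reverse complement of the core.
Nkg7: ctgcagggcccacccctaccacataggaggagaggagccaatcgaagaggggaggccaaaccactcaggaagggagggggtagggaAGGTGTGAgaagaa
Gzmk: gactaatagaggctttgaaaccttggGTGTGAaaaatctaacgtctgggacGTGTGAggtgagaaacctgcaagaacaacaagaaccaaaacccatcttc
Gzmb: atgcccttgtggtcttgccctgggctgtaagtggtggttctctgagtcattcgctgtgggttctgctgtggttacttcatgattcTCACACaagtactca
The Nkg7 match ended 7 bases before the start, and the Gzmk promoter held the core at 2 places. A match describes the letters, not binding, and the share among the members was not tested.

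To ask whether effector transcripts differed with response, responsive tumors were compared with nonresponsive tumors on log2(FPKM + 1). None of the 9 members passed limma's test at an adjusted p under 0.05, where 0.116% of the 13832 features tested did, and none had an unadjusted p under 0.05, where 5.49% of features did. Members were higher in responsive tumors for 5 genes and lower for 4, with log2 fold changes from -0.39 for Gzma to 0.99 for Gzmc, and the limma adjusted p ranged from 0.973 to 0.998. Their median log2 fold change was 0.07, against -0.07 over all features. The 2 groups overlapped for all 9 members, while 10.5% of features did not overlap.

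The intervals were wide. Gzmc averaged 40.8 ± 32.5 FPKM (SD, n = 3) in responsive and 12.3 ± 4.32 in nonresponsive tumors, a log2 fold change of 0.99 with a standard error of 1.05 and a 95% interval of -1.59 to 3.57. Prf1 averaged 9.09 ± 6.74 FPKM against 4.57 ± 1.89, a log2 fold change of 0.53 with an interval of -1.37 to 2.43. For Tbx21 the interval was narrower, -0.66 to 0.58 around -0.04, and for Fasl it was -0.51 to 0.68 around 0.09. The median standard error of the members was 0.54, against 0.32 over all features.

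The direction of the members depended on single responsive tumors. Without responsive tumor 1, all 9 members were higher in the 2 remaining responsive tumors than in the nonresponsive tumors, with a median log2 fold change of 0.65 against 0.01 over all features. Gzmc then differed by 2.23 on the log2 scale, with an unadjusted p of 0.00118 and a limma adjusted p of 0.591. Prf1 differed by 1.39, with an unadjusted p of 0.0152 and a limma adjusted p of 1.00. Leaving out responsive tumor 2 or 3 instead turned the median to -0.09 and -0.19. Responsive tumor 1 was also the tumor with the highest hepatocyte level and with the lowest Cd8a level, 2.46 FPKM. With the hepatocyte level as a covariate in a fit of all 9 tumors, 5 members were higher and the median was 0.09. The part of the Cd8a level was not tested.

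**Figure D2:**
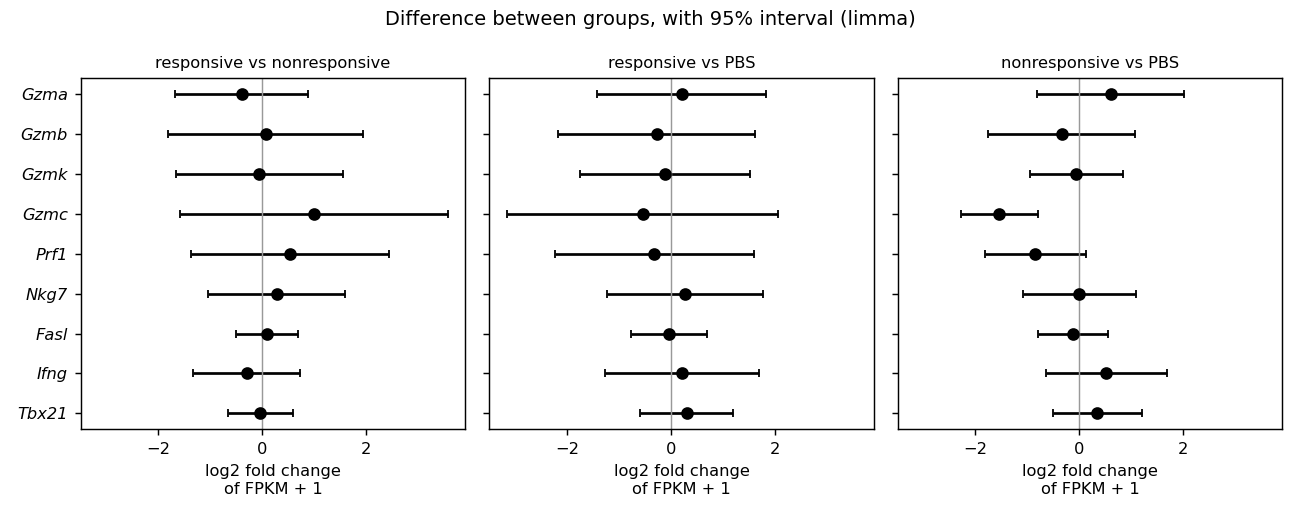
Difference in log2(FPKM + 1) between groups (horizontal axis) for each effector gene, as the limma estimate (points) with its 95% interval (bars), in 3 comparisons of 3 tumors each. The interval of Gzmc between nonresponsive and PBS tumors, -2.28 to -0.79, is the one that leaves out 0.

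Against the PBS tumors, no member of the responsive tumors passed the limma test at an adjusted p under 0.05, where 0.231% of the 13841 features did, or had an unadjusted p under 0.05, where 17.2% of features did. Log2 fold changes ran from -0.54 for Gzmc to 0.31 for Tbx21, with 4 members higher and 5 lower, a median of -0.03 and a median of -0.11 over all features. The groups overlapped for all 9 members, against 28% of features without overlap. Without responsive tumor 1, all 9 members were higher than in the PBS tumors, with a median of 0.59, and Gzmc turned to 0.69 with an unadjusted p of 0.0392 and a limma adjusted p of 0.594. Without PBS tumor 1, 1 member was higher and the median was -0.36, and without PBS tumor 2, 7 were higher and the median was 0.18.

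Between nonresponsive and PBS tumors, Gzmc was the member set furthest apart. It averaged 12.3 ± 4.32 FPKM in nonresponsive and 36.8 ± 8.28 in PBS tumors (SD, n = 3), a log2 fold change of -1.54 with a standard error of 0.30. Its unadjusted p was 0.00246 and its limma adjusted p 0.718, so it did not pass the test across features. The exact two-sided permutation p was 0.10, the smallest that 3 against 3 tumors allow. None of the 9 members passed at an adjusted p under 0.05, where 0.0798% of 13793 features did, and Gzmc was the 1 member with an unadjusted p under 0.05, where 3.22% of features had one.

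Gzmc and Prf1 were the 2 members whose nonresponsive and PBS tumors did not overlap, where 8.21% of features did not. Prf1 averaged 4.57 ± 1.89 FPKM against 8.99 ± 3.73, a log2 fold change of -0.85 with an interval of -1.82 to 0.12 and a limma adjusted p of 0.718. The other granule genes gave -0.34 for Gzmb, -0.06 for Gzmk, -0.00 for Nkg7 and 0.61 for Gzma on the log2 scale, and Ifng and Tbx21 gave 0.52 and 0.35. The median over the 9 members was -0.06, as it was over all features, with 3 members higher and 6 lower. Without PBS tumor 1 the median was -0.33 with 3 higher, and without PBS tumor 2 it was 0.14 with 7 higher. Gzmc kept an unadjusted p under 0.05 whichever of the 6 tumors was left out, at log2 fold changes of -1.78 to -1.32. When all 9 tumors shared one estimate of the spread, the difference was the same -1.54, its standard error 0.92 and its unadjusted p 0.136. With the hepatocyte level as a covariate the difference was -1.09, with a standard error of 1.09 and an unadjusted p of 0.349. Without PBS tumor 2, Ifng at 0.98 and Tbx21 at 0.68 also had an unadjusted p under 0.05, each with a limma adjusted p of 0.631.

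When all 6 antibody-treated tumors were set against the 3 PBS tumors, none of the 9 members passed at an adjusted p under 0.05 by limma, where 0.0346% of 14457 features did, and none had an unadjusted p under 0.05, where 10.5% did. The groups overlapped for all 9 members, against 2.95% of features without overlap. The members were higher for 4 and lower for 5, at a median log2 fold change of -0.08 against -0.07 over all features. Gzmc at -1.04 and Gzma at 0.41 were the ends of the range, and the limma adjusted p ranged from 0.473 to 0.926. The median depended on single tumors: without PBS tumor 1 it was -0.29 with 1 member higher, without PBS tumor 2 it was 0.13 with 7 higher, and without responsive tumor 1 it was 0.20 with 5 higher. Without PBS tumor 2, Tbx21 at 0.66 had an unadjusted p of 0.0210 and a limma adjusted p of 0.377. These 4 comparisons share tumors and are not independent of one another.

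**Figure D3:**
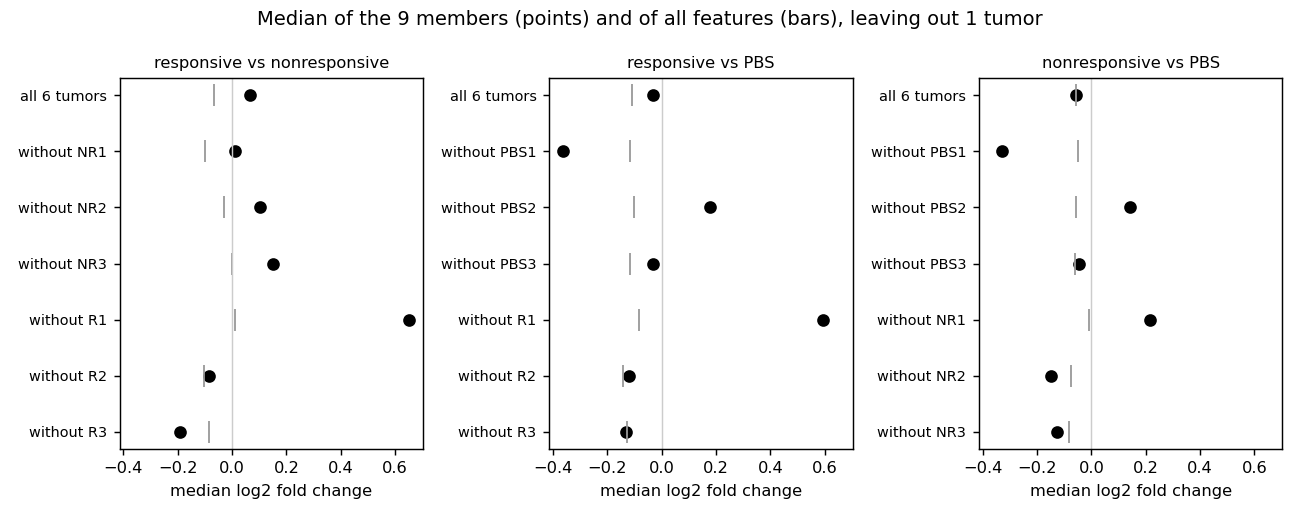
Median log2 fold change of the 9 effector genes (points) and of all features tested (bars) with all 6 tumors and after leaving out each tumor, in 3 comparisons. Leaving out responsive tumor 1 moves the members' median from 0.07 to 0.65 between responsive and nonresponsive tumors, while that of all features moves from -0.07 to 0.01.

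The neighbours of Gzmc in the granzyme cluster showed the same arrangement of tumors at a higher level. The part of sequence shared with Gzmc in this likeness was not tested. Gzmd, Gzme, Gzmf and Gzmg are closely related genes, and with Gzmn they shared entries in some tumors, in 5 of 9 for Gzmd and in 6 of 9 for Gzmf and Gzmg. They were therefore summed as 1 locus over distinct entries. This locus reached 219, 316 and 166 FPKM in the PBS tumors, 42.4, 48.3 and 52.9 in the nonresponsive tumors and 13.9, 312 and 458 in the responsive tumors. The nonresponsive values lay close together and below all PBS values, and the responsive tumors lay on both sides of them. Gzmd shared its entry in the PBS tumors and in responsive tumors 2 and 3, the tumors where the locus was at 166 to 458 FPKM. It had an entry of its own in the nonresponsive tumors and in responsive tumor 1, where the locus was at 13.9 to 52.9. The form of the entries and the level of the locus therefore cannot be told apart, and summing does not remove this limit.

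Between nonresponsive and PBS tumors the locus differed by -2.22 on the log2 scale, with a standard error of 0.27, an unadjusted p of 0.000175 and a limma adjusted p of 0.369 over 12661 loci. It thus did not pass the test, although it ranked 6 by p. Between responsive and nonresponsive tumors the difference was 1.40 with an interval of -1.66 to 4.47. Without responsive tumor 1 it was 2.96 with a standard error of 0.28, an unadjusted p of 8.04e-05 and a limma adjusted p of 0.493. Taken symbol by symbol, 4 of the 4 tested genes of the list of other granzymes were lower in nonresponsive tumors with an unadjusted p under 0.05, and Gzmd passed with a limma adjusted p of 0.0374. These 4 are not separate results. Gzmd, Gzme, Gzmf and Gzmg held the value of 1 shared entry in PBS tumors 2 and 3, and Gzmd, Gzmf and Gzmg also in PBS tumor 1. In the PBS tumors that Gzmd value is the level of an entry shared with its neighbours, and in the nonresponsive tumors it is Gzmd alone, so the 2 groups do not measure the same quantity. The same limit holds for Gzme, Gzmf and Gzmg, although Gzmf and Gzmg also shared an entry in nonresponsive tumor 1. Of the transcript stretches of Gzmd, 21.9% were found in other genes, so the split between these genes is uncertain.

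Gzmc made up a similar share of granzyme transcripts everywhere, 10.9% to 13.6% of the summed FPKM of Gzma, Gzmb, Gzmk, Gzmc and the locus in all 9 tumors. The other members' shares varied more. Gzmb made up 5.21%, 10.5% and 10.7% in the PBS tumors, 14.2%, 21.8% and 26.6% in the nonresponsive tumors and 22.5%, 9.49% and 5.60% in the responsive tumors. Gzma made up 1.20% to 5.51% in the PBS tumors, 11.5% to 16.3% in the nonresponsive tumors and 2.69% to 15.0% in the responsive tumors. For both genes every nonresponsive share lay above every PBS share, and so it did for Gzmk, at 3.64% to 5.06% against 1.08% to 2.07%. The locus made up 39.7% to 57.5% of the sum in the nonresponsive tumors and 68.1% to 81.0% in the PBS tumors. A lower share of the locus raises the other shares by itself. The form of the locus entries, which differed between these groups, limits all of these shares and the total. The levels of Gzma, Gzmb and Gzmk overlapped between these groups. The total itself was 244 to 426 FPKM in the PBS tumors, 73.8 to 133 in the nonresponsive tumors and 29.5, 429 and 576 in the responsive tumors.

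**Figure D4:**
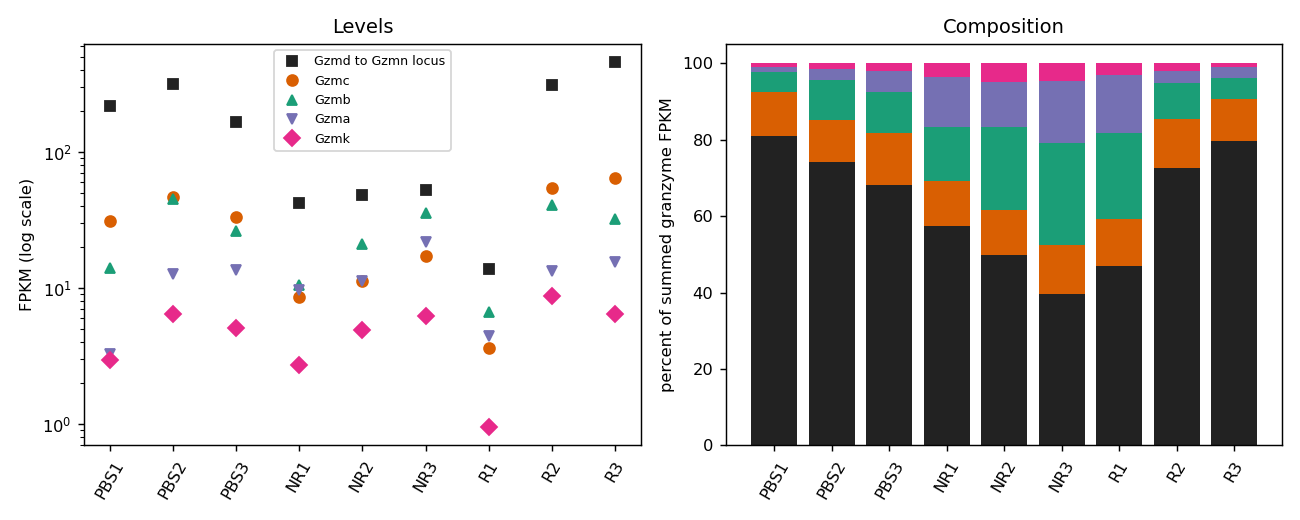
Granzyme levels in FPKM (left, log axis) and as a percent of their summed FPKM (right, stacked bars, same colors) in the 9 tumors; the locus of Gzmd to Gzmn is the sum of its distinct entries. Gzmc holds 10.9% to 13.6% of the sum in every tumor, while the total ranges from 29.5 to 576 FPKM.

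The effector genes were then set beside lymphocyte markers. Cd3e, a subunit of the T cell receptor complex, was at 7.79, 22.9 and 17.5 FPKM in the PBS tumors, 18.8, 17.3 and 15.4 in the nonresponsive tumors and 17.5, 18.6 and 21.6 in the responsive tumors. Cd8a, the co-receptor chain of cytotoxic T cells, was at 5.81, 24.4 and 5.96 FPKM in the PBS tumors, 4.70, 6.77 and 6.64 in the nonresponsive tumors and 2.46, 22.8 and 19.1 in the responsive tumors, in an entry shared with Gm44174. Responsive tumor 1 thus had a Cd3e level near those of the other responsive tumors and the lowest Cd8a level. Its Cd8a to Cd4 ratio was 0.161, the lowest of the 9, against 2.93 and 1.14 in responsive tumors 2 and 3 and 0.416 to 0.845 in the nonresponsive tumors. Cd8b1, the gene of the other CD8 chain, had an entry of its own and was not lowest in responsive tumor 1. It was at 5.34, 16.8 and 10.7 FPKM in the responsive tumors, against 5.18 to 13.5 in the PBS and 5.27 to 9.56 in the nonresponsive tumors. The ratios given here use Cd8a alone.

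Relative to Cd8a, the effector genes varied less between tumors than relative to Cd3e for 6 of 9 members, the others being Gzma, Fasl and Tbx21. Within the 6, the spans were close for Ifng, 3.95-fold against 4.06-fold, and for Nkg7, 3.14-fold against 3.53-fold. The same count was not made for other features. The Prf1 to Cd8a ratio was 1.20, 0.545 and 1.12 in the PBS tumors, 0.509, 0.822 and 0.866 in the nonresponsive tumors and 0.541, 0.544 and 0.709 in the responsive tumors, a 2.36-fold span. Relative to Cd3e the span of Prf1 was 11.8-fold. For Gzmc the spans were 3.77-fold relative to Cd8a and 19.2-fold relative to Cd3e, and for Tbx21 they were 6.31-fold and 1.92-fold. These ratios are descriptions of 9 bulk tumors.

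**Figure D5:**
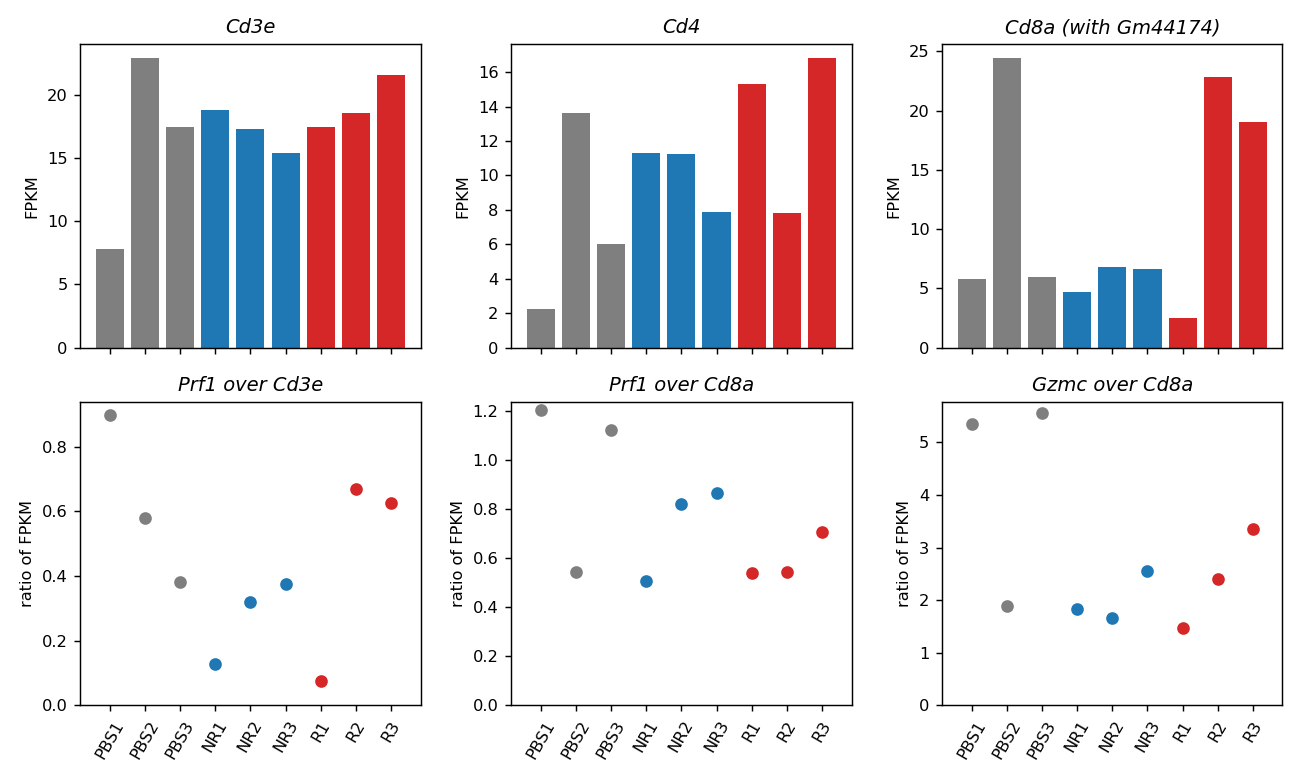
FPKM of Cd3e, Cd4 and Cd8a (upper row, bars) and ratios of Prf1 and Gzmc to Cd3e or Cd8a (lower row, points, axes from 0) in PBS (gray), nonresponsive (blue) and responsive (red) tumors. Responsive tumor 1 has 17.5 FPKM of Cd3e but 2.46 of Cd8a, and its Prf1 to Cd8a ratio, 0.541, lies within the range of the other tumors.

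The T cell list leaned to the responsive tumors. All 13 of its genes had higher mean values there than in nonresponsive tumors, with a median log2 fold change of 0.58. None passed limma's adjusted test, and 6 had an unadjusted p under 0.05, among them Cd3d at 0.64 and Cd2 at 0.69, each with a limma adjusted p of 0.886. Without responsive tumor 1, all 13 were higher at a median of 0.68, 7 of them with an unadjusted p under 0.05. Without responsive tumor 3, all 13 were higher at a median of 0.38, 1 of them with an unadjusted p under 0.05. The difference between the T cell list and the effector genes was not tested. The mean log2 level of the members minus that of the T cell list was -0.10, -0.61 and -0.33 in the PBS tumors, -1.19, -0.72 and -0.34 in the nonresponsive tumors and -2.08, -0.53 and -0.80 in the responsive tumors. Responsive tumor 1 had the lowest effector level relative to its T cell markers.

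NK cell markers differed in level, from means over the 9 tumors of 12.5 FPKM for Klrb1c and 10.7 for Klrd1 to 0.660 for Ncr1. Of the 8, 6 were tested, with 2 higher and 4 lower in responsive than in nonresponsive tumors, and Klrb1c, in an entry shared with Klrb1b and Gm44511, had an unadjusted p of 0.00374 at a log2 fold change of -1.61 with a limma adjusted p of 0.842. Leaving out responsive tumor 1, 4 of the 6 were higher. Cd160 was listed at 0 in every tumor. Other cells that can carry granzyme transcripts gave no adjusted calls in any comparison. Of the 7 tested mast cell and basophil genes 4 were higher, and the 3 tested plasmacytoid dendritic cell genes were lower, in responsive than in nonresponsive tumors, without an unadjusted p under 0.05. Irf8 was not analysed here.

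Hepatocyte genes gave larger medians than the effector genes. All 12 had higher mean values in responsive tumors than in nonresponsive ones, at a median log2 fold change of 1.42, and 6 had an unadjusted p under 0.05 but none passed the adjusted test by limma. All 12 were still higher without responsive tumor 1, at a median of 1.13, and 1 had an unadjusted p under 0.05. Against PBS, all 12 were higher in responsive tumors at a median of 2.87, 10 of them with an unadjusted p under 0.05; without PBS tumor 1 the median was 1.92 and 10 had one, and without responsive tumor 1 it was 2.54 and 4 had one. The hepatocyte level was 3.26, 6.12 and 6.45 in the PBS tumors, 7.56, 6.67 and 5.78 in the nonresponsive tumors and 8.79, 7.62 and 7.93 in the responsive tumors, as a mean of log2(FPKM + 1). Its part in the effector values was not tested beyond the covariate given above. Of 6 macrophage genes, 1 was higher and 5 were lower in responsive tumors than in nonresponsive ones, without an unadjusted p under 0.05. All 4 hepatoma genes were lower, with H19 at -1.95 on the log2 scale, an unadjusted p of 0.0126 and a limma adjusted p of 0.886.

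The genes upstream of the effectors gave no adjusted calls. Of the cytotoxic transcription factor list, which holds partners of T-bet such as Eomes and Runx3, 6 of 12 tested genes had higher mean values in responsive than in nonresponsive tumors, without an unadjusted p under 0.05. Against PBS, Hopx and Tox, genes expressed in effector and exhausted T cells, had an unadjusted p under 0.05. Hopx was at 3.63, 9.14 and 8.61 FPKM in the PBS tumors, 21.1, 9.96 and 9.41 in the nonresponsive tumors and 24.0, 16.2 and 15.7 in the responsive tumors. Every treated tumor was above every PBS tumor, at a log2 fold change of 1.08 with a limma adjusted p of 0.419. Between treated and PBS tumors, 2.95% of all features did not overlap.

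Among cytokine and receptor genes that induce the effectors, 4 of 16 tested were higher and 12 lower in responsive than in nonresponsive tumors, without an unadjusted p under 0.05. Il18rap, a chain of the interleukin-18 receptor, was at 11.2, 12.9 and 11.9 FPKM in the PBS tumors and at 5.05, 6.04 and 7.26 in the responsive tumors, with 6.37, 10.9 and 12.1 in the nonresponsive tumors. Its responsive and PBS tumors did not overlap, at a log2 fold change of -0.88 with an unadjusted p of 0.00285 and a limma adjusted p of 0.281. Jak2, a kinase of interferon-gamma and interleukin-12 receptors, differed by -0.69, with the same limma adjusted p of 0.281. Between responsive and PBS tumors, 28% of all features did not overlap and 17.2% had an unadjusted p under 0.05.

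Granule partners were likewise described by counts. Of 10 genes for granule contents and granzyme processing, 3 were higher and 7 lower in responsive than in nonresponsive tumors, and Cst7, the gene of the protease inhibitor cystatin F, had an unadjusted p of 0.0209 at 0.74 on the log2 scale, with a limma adjusted p of 0.886. Cst7 was at 8.75, 10.3 and 8.02 FPKM in the nonresponsive tumors and 11.8, 17.3 and 18.8 in the responsive tumors, so that every responsive tumor, tumor 1 included, lay above every nonresponsive tumor. Between these groups, 10.5% of all features did not overlap. Of the 9 tested genes of granule exocytosis, 4 were higher and 5 lower, and of 10 death ligands and receptors, 6 were higher and 4 lower. The inhibitors of granzymes and of death signalling were higher for 2 and lower for 7 of 9, and without responsive tumor 1 they were higher for 5. None of these 3 lists held a gene with an unadjusted p under 0.05 in any of the 4 comparisons. Among the inhibitors, Serpina3f and Serpina3g shared entries with each other or related genes in 7 and in 9 of the 9 tumors. They had the same values in the PBS tumors and are not wholly separate measurements. Both were at 0 FPKM in responsive tumor 1 and at 1200 in responsive tumor 2.

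Genes that respond to interferon-gamma were lower in responsive than in nonresponsive tumors for 17 of 19, at a median log2 fold change of -0.36, and higher in nonresponsive than in PBS tumors for 16 of 19, at 0.30. The 19 are not all separate measurements. Igtp and Irgm2 had the same values in all 9 tumors, and Gbp2 and Gbp3 shared an entry in nonresponsive tumor 1. Psmb8 and Tap1, with higher mean FPKM in responsive than in nonresponsive tumors, shared an entry in responsive tumors 2 and 3. None of the 19 had an unadjusted p under 0.05 in any of the 4 comparisons. Without responsive tumor 1, 9 of 19 were higher than in nonresponsive tumors, at a median of -0.02, and without PBS tumor 1, 11 of 19 were higher in nonresponsive than in PBS tumors, at 0.04. Ifng itself gave -0.30 and 0.52 in the same comparisons.

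Of 14582 features compared over the 9 tumors, those most like the standardized mean of the members were Vps33b, the Cd8a entry, Wars, Thap2 and the Gbp4 entry. Their root mean square differences, in standard deviations, were 0.300, 0.398, 0.413, 0.423 and 0.444, while the members' own ranged from 0.256 for Nkg7 to 0.782 for Tbx21. Each member is part of that mean and the other features are not, so the members' own differences are lowered by construction. Wars, a tRNA synthetase gene, was at 33.9, 72.9 and 47.2 FPKM in the PBS tumors, 29.6, 57.0 and 75.4 in the nonresponsive tumors and 20.8, 71.7 and 53.6 in the responsive tumors. It too was lowest in responsive tumor 1.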

How the data were processed

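Whole-tumor RNA-seq from 9 mice was used, 3 tumors per group as labelled. The authors aligned reads and deposited, for each tumor, a Cufflinks table of FPKM with 95% intervals. The submitters' processing notes name Bowtie2 2.2.4, TopHat2 2.1.1 and mm8. Apart from the extent of the Gzmc entry, entry coordinates were not used: 3.63% of 20468 named entries start within 1000 bases of the GRCm38.p6 gene, and the build was not settled. The deposited table of group comparisons holds Cuffdiff fold changes and p-values, which were not used.

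FPKM was summed per symbol over all entries naming it, and symbols with the same values in all tumors were joined into 1 feature. Features reaching an FPKM of 1 in 3 or more of the tumors in a comparison were kept. Their log2(FPKM + 1) values were tested by limma (version 3.58.1, under R 4.3.3) with a trended variance. P-values were adjusted by Benjamini-Hochberg over all features, and calls used an adjusted p under 0.05. Fold changes on log2(FPKM + 1) understate those of low genes. Cuffdiff, which the study used, needs data not used here. Exact permutation tests were two-sided. Fragments behind a value were inferred from its interval and cover counting error only. The test was checked on simulated data for responsive against nonresponsive tumors, with normal values and a spread shared by both groups. Groups of unequal spread, as seen for Gzmc, were not simulated.

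The members and the 15 gene lists were chosen with earlier results of these data known. Named from each list were the 2 genes of highest mean FPKM and the 2 of smallest unadjusted p under 0.05 per comparison, of which those bearing on a result are printed. Cd3e, Cd4, Cd8a and Ncr1 were named as defining markers, and other list members to say what a list holds. Features like the members were the 5 with the smallest root mean square difference. Alternatives covered pseudocount, filter, scaling, joining of entries, fit, block, covariate, variance model and each tumor left out.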

Additional observations from a re-analysis of the deposited data

How the results depend on the processing

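Under every alternative, no member had a limma adjusted p under 0.05 in any comparison. Gzmc between nonresponsive and PBS tumors kept its direction under every alternative, and the number of members with an unadjusted p under 0.05 in that comparison went from 1 to 0 with all 9 tumors in 1 fit and to 0 with the hepatocyte covariate; leaving out 1 tumor, it ranged from 1 to 3. The same count ranged from 0 to 2 between responsive and nonresponsive tumors, from 0 to 1 between responsive and PBS tumors and from 0 to 1 between treated and PBS tumors. The cause was not tested. A filter at FPKM 5 left 7 members to test, and keeping only entries that name 1 gene left 8.

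All reversals concerned members without a call, on the log2 scale. With FPKM rescaled to the sum of named genes, signs turned for responsive against nonresponsive (Gzmb -0.12, Fasl -0.035) and nonresponsive against PBS (Nkg7 0.044). With the hepatocyte covariate, signs turned for responsive against nonresponsive (Gzmk 0.088, Fasl -0.069), responsive against PBS (Gzma -0.30, Gzmk 0.17, Gzmc 0.36, Prf1 0.34, Ifng -0.20, Tbx21 -0.16), nonresponsive against PBS (Gzmk 0.080) and anti-PD-1 against PBS (Gzmk 0.12, Tbx21 -0.020). With upper-quartile scaling, signs turned for nonresponsive against PBS (Nkg7 0.011).

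Leaving out each tumor in turn turned other signs. For responsive against nonresponsive, the ranges were Gzma -0.69 to 0.11, Gzmb -0.40 to 0.83, Gzmk -0.51 to 0.65, Nkg7 -0.086 to 0.83, Fasl -0.013 to 0.28, Ifng -0.54 to 0.15, Tbx21 -0.19 to 0.13. For responsive against PBS, the ranges were Gzma -0.36 to 0.71, Gzmb -0.74 to 0.49, Gzmk -0.57 to 0.59, Gzmc -1.21 to 0.69, Prf1 -0.78 to 0.54, Nkg7 -0.090 to 0.83, Fasl -0.24 to 0.18, Ifng -0.22 to 0.68. For nonresponsive against PBS, the ranges were Gzmb -0.75 to 0.096, Gzmk -0.32 to 0.21, Nkg7 -0.35 to 0.38, Fasl -0.33 to 0.090. For anti-PD-1 against PBS, the ranges were Gzma -0.17 to 0.72, Gzmb -0.72 to 0.085, Gzmk -0.34 to 0.20, Nkg7 -0.21 to 0.52, Fasl -0.29 to 0.13, Ifng -0.072 to 0.83. The Gzmd to Gzmn locus without each tumor, chosen after seeing the data, ranged from -1.74 to 0.74 for responsive against PBS and kept its direction in the other 3 comparisons.

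Replicate numbers did not pair the tumors: of 9 same-numbered pairs, deviations correlated at -0.39 to 0.48, with 2 over 0.1, and 2 of 9 tumors correlated best with their own number. With the replicate block, Gzmc between nonresponsive and PBS tumors had an unadjusted p of 0.00892 and a limma adjusted p of 0.854, no member changed its call, and features called at an adjusted p under 0.05 went from 11 to 0 in that comparison and from 16 to 1 between responsive and nonresponsive tumors. Rescaling to the sum of named genes moved the median of all features between responsive and nonresponsive tumors from -0.07 to -0.24, and the higher share of features with an unadjusted p under 0.05 from 73.8% to 34.6%; with the hepatocyte covariate that share was 29.1%. With 3 tumors per group, wide intervals limited which differences could be seen.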
